A study of Mus musculus with 6 samples.

Results

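The genes described here are the antioxidant and redox enzymes linked to the transcription factor NRF2, a list of 33 genes taken by name from the 40202 genes of the deposited table. They comprise 11 genes of glutathione synthesis and use, 6 of the thioredoxin and peroxiredoxin system, 5 of NADPH supply, 4 of iron and heme handling, 3 regulators and 4 other detoxification enzymes. The grouping by role was made from known function, not from the measured values. Total RNA of BV2 cells, an immortalised microglial line of C57BL/6 mouse background, was sequenced in 3 libraries from cells given human full-length apolipoprotein E4 (FL-ApoE4) at 25 µg/ml for 5 h and in 3 libraries from untreated control cells. FL-ApoE4 is a lipid-carrying protein of human sequence that was bought as protein and added to the medium. Whether controls received its vehicle is not stated in the labels. Nor do these say that the replicates were separate cultures, and the p-values then reflect the spread between libraries, possibly a technical one.

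NRF2, encoded by Nfe2l2, is a bZIP transcription factor that is kept low by KEAP1, an adaptor that delivers it to a CUL3 ubiquitin ligase. Oxidants and electrophiles modify cysteines of KEAP1, and NRF2 then accumulates, pairs with a small MAF protein and binds antioxidant response elements in DNA. Its targets make and recycle glutathione and thioredoxin, supply NADPH, break down heme and store iron. In macrophages and microglia the same pathway is known for restraining inflammatory gene expression.

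Promoter windows are shown for 7 of the genes, because the results below turn on them. They are from RefSeq on build GRCm38.p6 and run from 250 bases before to 50 after the annotated start, 5′ to 3′ on the strand of the gene. The authors' processing used another build, GRCm39, so these coordinates are those of the sequence table and not of the reads. Capitals mark 2 patterns, the antioxidant response element core TGACNNNGC and the core TGANTCAGC, which also holds an AP-1 site, each searched on both strands. Sqstm1, Srxn1, Txnrd1, Prdx1 and Gclm are shown for their high values in a single control library, Nfe2l2 and Idh1 for their difference between groups. Hmox1 had no window among the sequences used here. For Idh1, with more than 1 window and no match in any, 1 of them is shown. For Txnrd1, with 3 windows, the 1 that held a match is shown.
Sqstm1, chr11:50210771-50211070, minus strand: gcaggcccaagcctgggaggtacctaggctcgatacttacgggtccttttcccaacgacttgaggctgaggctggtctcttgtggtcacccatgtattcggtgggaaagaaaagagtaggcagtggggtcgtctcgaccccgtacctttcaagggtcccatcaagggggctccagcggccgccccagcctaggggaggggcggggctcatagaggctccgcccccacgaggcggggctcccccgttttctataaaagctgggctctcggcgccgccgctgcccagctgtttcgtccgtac
Prdx1, chr4:116685349-116685648, plus strand: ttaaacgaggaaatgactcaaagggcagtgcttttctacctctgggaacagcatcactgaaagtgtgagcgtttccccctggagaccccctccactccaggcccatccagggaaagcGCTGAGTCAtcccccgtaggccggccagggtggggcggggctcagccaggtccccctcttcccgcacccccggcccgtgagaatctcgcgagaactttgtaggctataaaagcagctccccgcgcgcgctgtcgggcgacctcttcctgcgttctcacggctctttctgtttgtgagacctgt
Srxn1, chr2:152105274-152105573, plus strand: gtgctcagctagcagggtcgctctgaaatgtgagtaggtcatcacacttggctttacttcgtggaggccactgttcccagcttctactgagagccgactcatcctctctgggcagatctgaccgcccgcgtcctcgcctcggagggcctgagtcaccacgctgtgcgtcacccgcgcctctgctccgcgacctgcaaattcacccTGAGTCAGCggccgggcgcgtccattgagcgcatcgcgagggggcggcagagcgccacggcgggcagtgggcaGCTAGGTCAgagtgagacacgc
Txnrd1, chr10:82858956-82859255, plus strand: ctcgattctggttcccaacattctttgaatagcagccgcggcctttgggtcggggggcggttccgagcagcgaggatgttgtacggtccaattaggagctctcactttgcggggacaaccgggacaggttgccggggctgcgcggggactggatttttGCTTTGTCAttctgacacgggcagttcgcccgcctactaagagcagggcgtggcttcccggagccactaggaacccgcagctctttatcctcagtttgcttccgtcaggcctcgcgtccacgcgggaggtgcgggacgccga
Gclm, chr3:122245307-122245606, plus strand: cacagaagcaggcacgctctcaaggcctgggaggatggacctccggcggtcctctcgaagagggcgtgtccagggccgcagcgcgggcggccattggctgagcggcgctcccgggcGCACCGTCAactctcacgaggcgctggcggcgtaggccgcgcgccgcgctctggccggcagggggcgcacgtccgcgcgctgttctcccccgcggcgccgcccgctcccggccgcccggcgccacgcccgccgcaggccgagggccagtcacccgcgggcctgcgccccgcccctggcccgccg
Nfe2l2, chr2:75704614-75704913, minus strand: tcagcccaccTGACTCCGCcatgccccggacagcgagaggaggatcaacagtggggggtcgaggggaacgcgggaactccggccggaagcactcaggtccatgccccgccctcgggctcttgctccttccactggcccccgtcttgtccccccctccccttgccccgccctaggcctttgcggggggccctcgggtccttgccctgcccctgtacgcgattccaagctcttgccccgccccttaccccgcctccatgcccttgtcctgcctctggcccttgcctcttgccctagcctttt
Idh1, chr1:65186430-65186729, minus strand: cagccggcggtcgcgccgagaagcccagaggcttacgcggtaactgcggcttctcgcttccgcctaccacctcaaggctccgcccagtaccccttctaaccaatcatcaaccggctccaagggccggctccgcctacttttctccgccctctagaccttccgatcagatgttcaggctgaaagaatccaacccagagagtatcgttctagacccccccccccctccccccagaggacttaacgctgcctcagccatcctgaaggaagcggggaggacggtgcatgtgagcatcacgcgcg

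Of the 33 genes, 27 had at least 1 window in the table. The core TGACNNNGC lay in a window of 8 of these 27 genes (29.6%), against 14% of all 27025 genes with a window. The genes were Gclm, Me1, Mgst1, Nfe2l2, Pgd, Prdx1, Srxn1 and Txnrd1. The core TGANTCAGC lay in 5 of 27 (18.5%), namely Gstp1, Me1, Osgin1, Prdx1 and Srxn1, against 1.37% of all genes. Either pattern was found in 10 of 27 genes (37%), against 14.7% of all genes. In Prdx1 the match GCTGAGTCA, read on the gene's strand, began at base -133 from the start and satisfied both patterns. Srxn1 held TGAGTCAGC at base -45 and GCTAGGTCA at base 29, inside the transcribed part. Txnrd1 held GCTTTGTCA at base -92, Gclm GCACCGTCA at base -134 and Nfe2l2 TGACTCCGC at base -240. Me1 held TGACTCAGC at base -6, Osgin1 GCTGACTCA at base -99 and Gstp1 TGAGTCAGC at base -74. The windows of Idh1 and Sqstm1 and the other windows of Txnrd1 held neither pattern. The patterns were chosen after matches were seen, and the genes for their known link to NRF2. These shares therefore describe the windows and are not a test of enrichment. A match describes letters in a window and is no measure of binding.

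The libraries held 45700128 to 54965393 reads assigned to genes, and the share taken by the 33 genes was 2.91%, 2.68% and 2.79% with FL-ApoE4 and 3.21%, 2.73% and 2.66% in controls. At this depth counting error was small for all but the 2 lowest genes, Nqo1 and Gsta4. All 12 microglia and macrophage markers were expressed, with summed levels of 240273 to 247971 normalised reads with FL-ApoE4 and 218317 to 223070 in controls. The part of this difference in the results below was not tested. In bulk RNA fewer cells of a type cannot be told apart from less RNA per cell. Of the defining markers of other brain cells, Rbfox3, Snap25, Map2, Gfap, Aqp4, Aldh1l1, Mog, Olig2, Sox10 and Cldn5 were under 5 normalised reads in every library. The summed marker levels of neurons, astrocytes, oligodendrocytes and endothelium were 61.2 to 80.3, 90.9 to 97.9, 1212 to 1295 and 4023 to 4546 normalised reads with FL-ApoE4. In controls the same sums, in that order of cell types, were 81.6 to 87.6, 78.7 to 130, 1151 to 1242 and 3009 to 4772. Mbp made up most of the oligodendrocyte sum and Kdr of the endothelial one.

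A pair of libraries stood apart from their groups. With FL-ApoE4, the chi-square of read counts per gene was 21.4 and 19.9 between replicate 1 and either of the others, and 4.39 between replicates 2 and 3. In controls it was 64.1 and 71.9 between replicate 1 and either of the others, and 4.85 between replicates 2 and 3. The deviation of FL-ApoE4 replicate 1 from the mean of the 6 libraries had a Spearman correlation of -0.46 with the length of the transcript, taken over genes, which are not independent. In the other 5 libraries it was -0.10 to 0.29. Results below are given with and without control replicate 1. Without FL-ApoE4 replicate 1, limma called 0 of the 32 members, and 18 of the 32 log2 fold changes were positive, against 22 with all libraries. The part of transcript length in the results was not tested.

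Per transcript length, the 33 genes differed widely in level. The ferritin heavy and light chains, which together form the iron storage shell, led the order. Fth1 was at 373428 normalised reads per 1000 bases of transcript with FL-ApoE4 and 356591 in controls, and Ftl1 at 347234 and 347878. Hmox1, heme oxygenase 1, came next at 48541 with FL-ApoE4 and 81641 in controls. It was followed by Sqstm1, the autophagy receptor p62, at 35959 and 45355 in the same order of groups. Prdx1, the cytosolic peroxiredoxin, stood at 27330 with FL-ApoE4 and 27225 in controls. At the low end were Osgin1, an oxidative stress-induced growth inhibitor, at 518 and 479, and Nqo1, a quinone reductase, at 54.6 and 46.9, each with FL-ApoE4 first. Nqo1 is a widely used NRF2 target, and here its RNA was among the lowest of the list. Gsta4, a glutathione S-transferase of lipid aldehydes, had 2.23, 0.93 and 0 normalised reads with FL-ApoE4 and 1.09, 0 and 1.89 in controls. It was the 1 gene of the 33 that failed the minimum of 10 normalised reads on average, so 32 were tested.

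**Figure D1:**
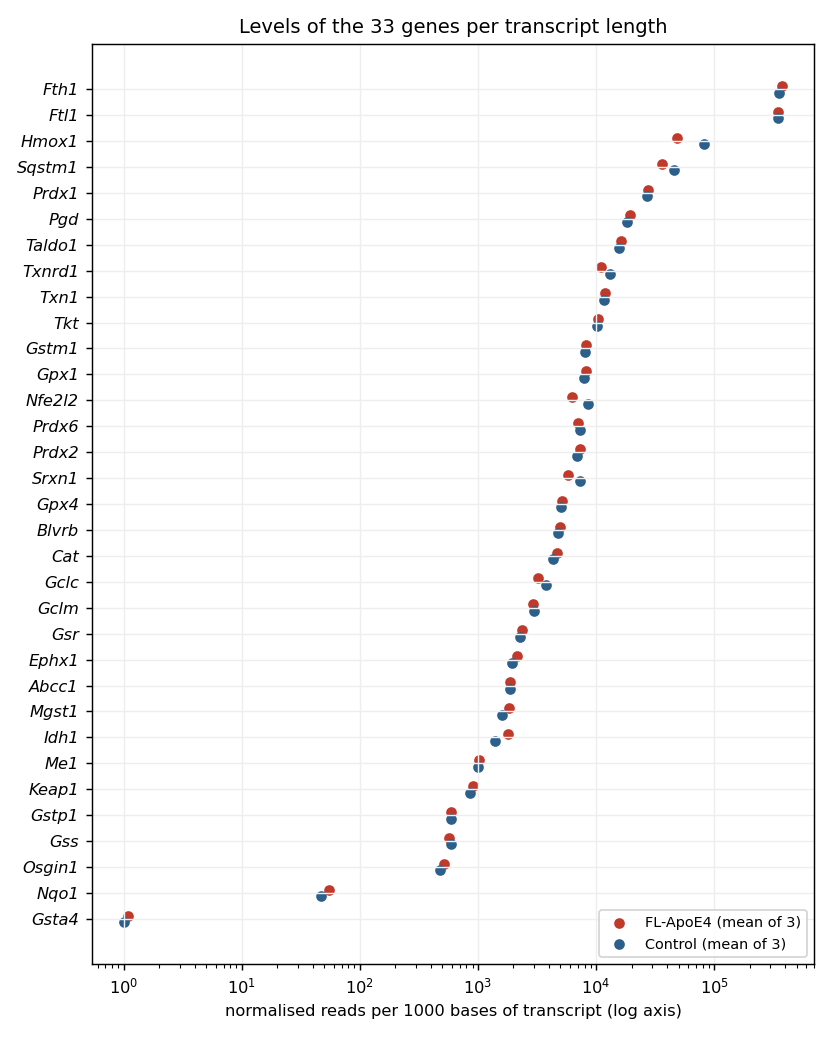
Normalised reads per 1000 bases of transcript (log axis) of all 33 genes, each point the mean of 3 libraries, FL-ApoE4 in red and Control in blue, ordered by level. Fth1 and Ftl1 lie highest, Nqo1 and Gsta4 lowest, and the separation of the 2 groups is widest for Hmox1 among the abundant genes.

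With all 6 libraries, limma and edgeR called none of the 32 tested genes different between FL-ApoE4 and control cells, and DESeq2 called Idh1 and Nfe2l2. By limma with Benjamini-Hochberg adjustment over 14079 genes 0 of 32 were called, and 0.0% of all genes were. By the edgeR quasi-likelihood test 0 of 32 were called as well, with 0.0% of all genes. At an unadjusted limma p under 0.05 there were 6 members (18.8%), against 13.1% of all genes, with 3 higher against 6.81% and 3 lower against 6.33%. DESeq2 on the recovered reads called 2 members and 2.63% of all genes, with Idh1 higher, against 1.36% of genes, and Nfe2l2 lower, against 1.27%. The authors' deposited table gives an adjusted p under 0.05 for the same 2 members and for 2.85% of its genes, 1.51% higher and 1.33% lower. The median log2 fold change over the 32 genes was 0.02, with 22 positive, against a median of 0.00 over all genes tested, of which 50.3% were positive. FL-ApoE4 and control libraries did not overlap for 4 members that were higher, Mgst1, Idh1, Keap1 and Ephx1, and 2 that were lower, Hmox1 and Nfe2l2. These 6 of 32 (18.8%) stand against 21.9% of all genes, 11.1% higher and 10.9% lower, so the share was near the background. By role, the median log2 fold change was -0.22 for the 3 regulators, 0.02 for the 4 iron and heme genes, -0.02 for the 6 thioredoxin genes, 0.02 for the 10 glutathione genes, 0.04 for the 5 NADPH suppliers and 0.13 for the 4 other detoxification enzymes. The same medians without control replicate 1 were 0.08, 0.07, 0.07, 0.07, 0.10 and 0.19, so those of the regulators and the thioredoxin genes turned from negative to positive.

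Without control replicate 1, a few members passed. In that limma fit 4 of 32 members (12.5%) were called, against 4.62% of all genes. Prdx1 and Idh1 were higher, against 2.93% of genes, and Gclc and Nfe2l2 lower, against 1.69%. The edgeR test without that library also called these 4 (12.5%, against 4.91% of all genes, 3.01% higher and 1.9% lower). DESeq2 without it called 7, adding Gclm, Gsr and Cat on the higher side (21.9%, against 6.81% of all genes, 3.86% higher and 2.95% lower). The controls left in these fits are the 2 most alike, so their spread may be understated and the p-values too small. With the first replicate of both groups left out, limma called 11 members (34.4%), 8 higher (Gclm, Gsr, Mgst1, Abcc1, Prdx1, Pgd, Idh1 and Cat) and 3 lower (Gclc, Hmox1 and Nfe2l2), against 12.6% of all genes, 7.02% higher and 5.53% lower, from 2 libraries a group. With control replicate 1 set aside, the groups did not overlap for 15 members that were higher (46.9%), against 20.0% of all genes, and for 3 that were lower (9.38%), against 19.7%, the share in either direction being 39.6% of all genes. The median over the 32 genes without control replicate 1 was 0.10 with 25 positive, against 0.00 over all genes, of which 50.2% were positive. That library was high for many members, as given below, so leaving it out raises their differences by arithmetic. Without control replicate 2 the members' median was -0.01 with 15 positive. Without control replicate 3 it was -0.0004 with 16 positive.

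**Figure D2:**
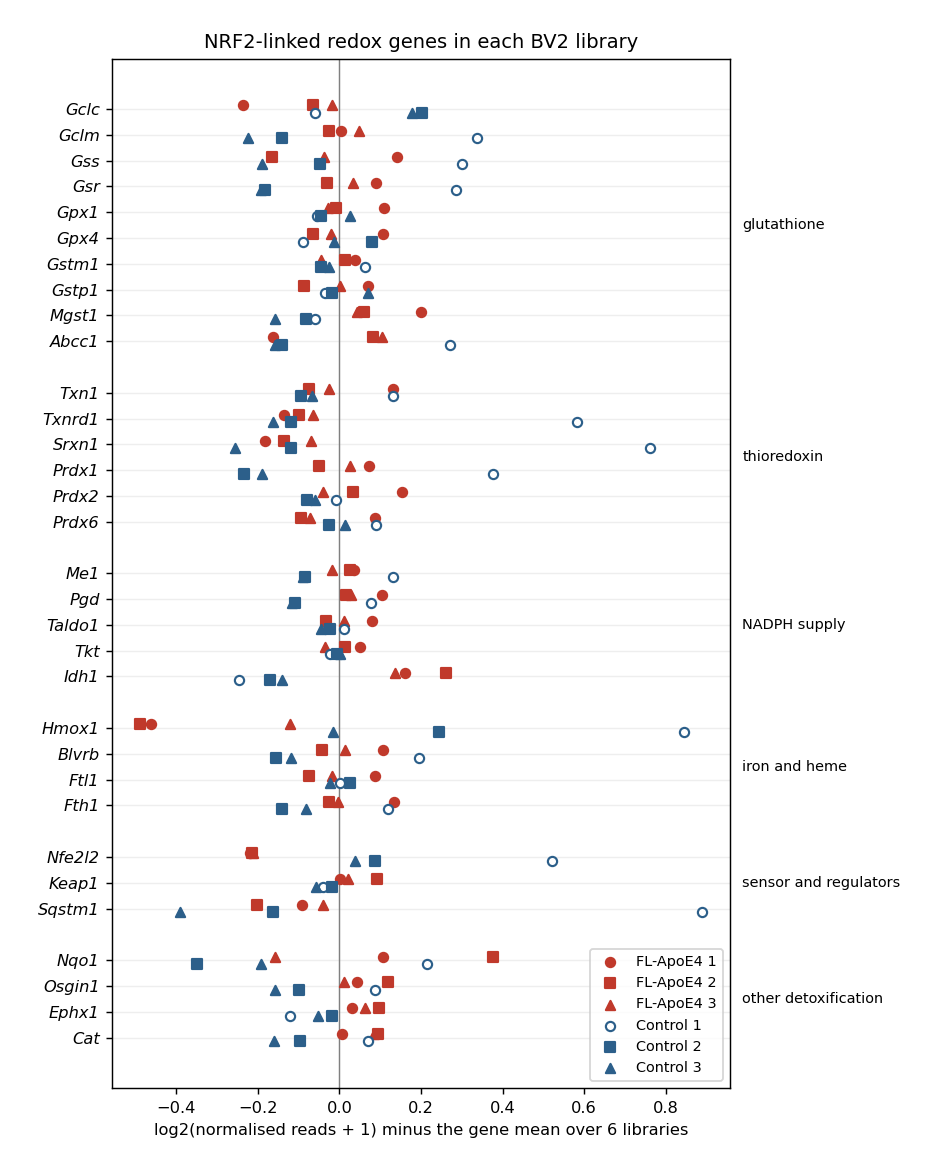
Deviation of each library from the gene's mean over the 6 libraries, on the log2(normalised reads + 1) scale, for the 32 tested genes grouped by role. Red marks FL-ApoE4, blue Control, and the open circle control replicate 1, which lies far to the right for Sqstm1, Srxn1, Hmox1, Txnrd1, Prdx1 and Gclm.

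The widest spread among these genes lay inside the control group. The median log2 excess of control replicate 1 over control replicates 2 and 3 was 0.20 among the 32 tested members, against -0.003 over all genes tested. Control replicate 1 was the highest of the 3 controls for 23 of the 32 members, and the share over all genes was not computed. It exceeded the mean of control replicates 2 and 3 by more than 0.25 on the log2 scale for 12 of the 32 (37.5%), against 16.2% of all genes tested, and lay more than 0.25 below it for 1 (3.12%), against 18.8%. An excess over 0.5 was seen for 6 of the 32 (18.8%), against 7.89% of all genes. Those 6 were Sqstm1 with an excess of 1.17, Srxn1 with 0.95, Hmox1 with 0.73, Txnrd1 with 0.72, Prdx1 with 0.59 and Gclm with 0.52. The 1 gene below was Gclc, at -0.25. What set control replicate 1 apart is not given in the labels and was not tested. By the same measure FL-ApoE4 replicate 1 exceeded its group's other replicates by more than 0.25 for 0 of the 32 genes, against 7.46% of all genes, and lay below for 1, Abcc1, against 14.5%.

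Of the 3 regulators, Nfe2l2 was called lower without control replicate 1 and by DESeq2, and Keap1 and Sqstm1 were called in none of these fits. Nfe2l2 was at 15438, 15490 and 15515 normalised reads with FL-ApoE4 and at 25815, 19108 and 18461 in controls. The 3 treated libraries had an SD of 39.4 reads, and all lay below every control. The log2 fold change was -0.43 ± 0.12 (SE; limma adjusted p = 0.215), with a 95% interval of -0.71 to -0.15. Without control replicate 1 Nfe2l2 fell by 0.28 ± 0.04 (limma adjusted p = 0.0103). In the authors' deposited table its log2 fold change is -0.45 at an adjusted p of 0.0227. Keap1, the inhibitor of NRF2, was at 3178, 3381 and 3223 normalised reads with FL-ApoE4 and at 3086, 3137 and 3050 in controls. The groups did not overlap, but the difference was small, at 0.08 ± 0.05 on the log2 scale (limma adjusted p = 0.57). The ratio of Nfe2l2 to Keap1 reads was 4.86, 4.58 and 4.81 with FL-ApoE4 and 8.36, 6.09 and 6.05 in controls. Sqstm1, whose protein p62 binds KEAP1 and directs it to autophagy, was at 74178, 68734 and 76834 normalised reads with FL-ApoE4 and at 146321, 70572 and 60271 in controls. Control replicate 1 was 2.24 times the mean of the other controls, while the treated libraries lay between those other controls or just above them. The log2 fold change of Sqstm1 was -0.22 ± 0.29 with all libraries and 0.17 ± 0.08 without control replicate 1, and neither passed (limma adjusted p = 0.818 and 0.281).

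**Figure D3:**
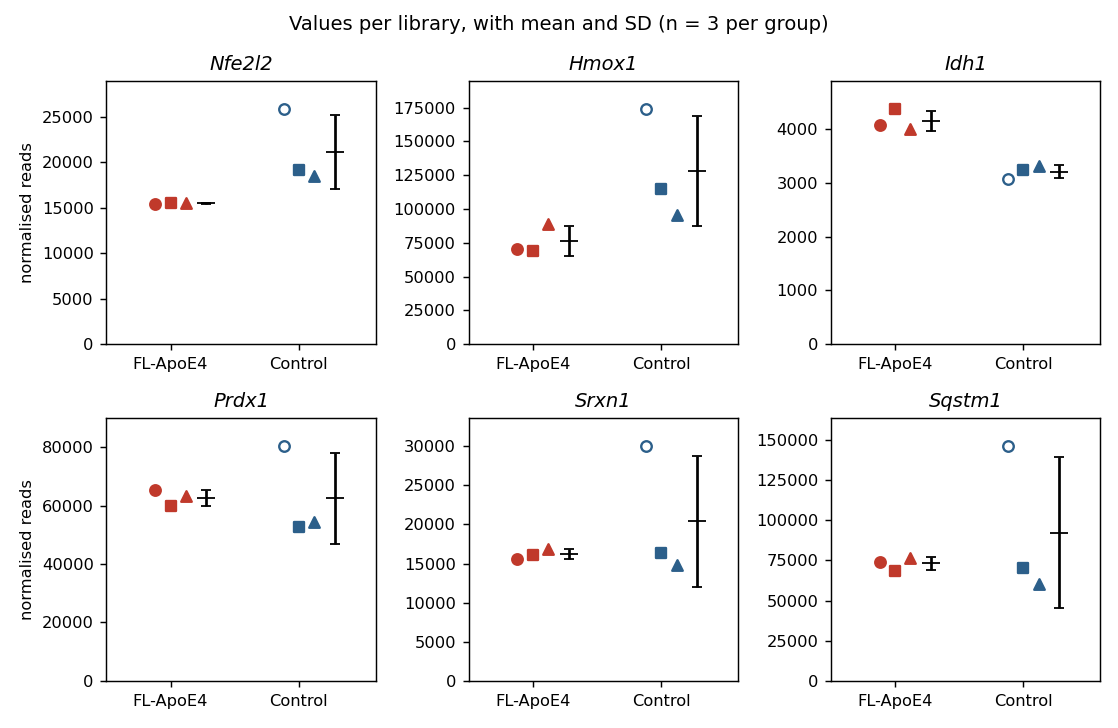
Normalised reads per library for 6 genes, FL-ApoE4 left and Control right, with the mean and SD of each group (n = 3) beside the points and control replicate 1 as the open circle. Nfe2l2 and Hmox1 lie lower and Idh1 higher in all 3 FL-ApoE4 libraries, while for Prdx1, Srxn1 and Sqstm1 the controls span both sides of the treated libraries.

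Of the iron and heme genes, Hmox1 differed most. Hmox1 encodes the inducible enzyme that opens the heme ring, releasing iron, carbon monoxide and biliverdin. It was at 70386, 69084 and 89015 normalised reads with FL-ApoE4 and at 173807, 114731 and 95745 in controls. All treated libraries were below all controls, although FL-ApoE4 replicate 3 and control replicate 3 were close. The log2 fold change was -0.71 ± 0.21 (limma adjusted p = 0.228), with a 95% interval of -1.20 to -0.22. Without control replicate 1 it was -0.47 ± 0.12 (limma adjusted p = 0.0573). Blvrb, biliverdin reductase B, had 5059 ± 266 normalised reads with FL-ApoE4 and 4905 ± 679 in controls (SD, n = 3 each). Its groups no longer overlapped without control replicate 1, at a log2 difference of 0.16 ± 0.06 (SE, limma adjusted p = 0.162). The ratio of Hmox1 to Blvrb was 13.2, 14.3 and 17.7 with FL-ApoE4 and 30.6, 25.7 and 20.9 in controls. Ftl1 averaged 336123 ± 19168 normalised reads with FL-ApoE4 and 336746 ± 5791 in controls, a log2 difference of 0.00 with a 95% interval of -0.14 to 0.13. Fth1 averaged 557901 ± 34104 with FL-ApoE4 and 532746 ± 51449 in controls, with an interval of -0.12 to 0.26. For Fth1 the groups no longer overlapped without control replicate 1, at a log2 difference of 0.15 ± 0.06 (limma adjusted p = 0.266), and Ftl1 remained at 0.00. Ferritin genes have many processed copies, and reads could be split with these. The listed copy Ftl1-ps2 averaged 52.7 normalised reads.

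Among the NADPH suppliers, Idh1 was the member with the lowest p of the whole list. Idh1 encodes the cytosolic isocitrate dehydrogenase, which reduces NADP while making 2-oxoglutarate. It was at 4076, 4369 and 4004 normalised reads with FL-ApoE4 and at 3072, 3240 and 3307 in controls. Every treated library was above every control, and control replicate 1 was here the lowest control. The log2 fold change was 0.37 ± 0.06, or 1.29-fold (limma adjusted p = 0.105), and Idh1 ranked 35th of the 14079 genes by p. Without control replicate 1 it rose by 0.34 ± 0.06 (limma adjusted p = 0.012). The authors' deposited table lists it at 0.37 with an adjusted p of 0.000128. With all libraries the pentose phosphate enzymes differed little. Pgd, phosphogluconate dehydrogenase, was at 45147, 42423 and 42790 normalised reads with FL-ApoE4 and 44271, 38943 and 38720 in controls, a log2 difference of 0.10 ± 0.06 (limma adjusted p = 0.567). The difference of Pgd was 0.16 ± 0.05 without control replicate 1 (limma adjusted p = 0.1035). Taldo1, transaldolase, and Tkt, transketolase, of the non-oxidative branch, had log2 fold changes of 0.04 ± 0.05 and 0.02 ± 0.04. Without that library these were 0.05 ± 0.05 and 0.01 ± 0.05. Me1, the cytosolic malic enzyme, had 0.03 ± 0.07, and 0.10 ± 0.05 without that library (limma adjusted p = 0.3185). All 5 log2 fold changes were positive with all libraries, and of the 5 genes Idh1 alone then separated the groups. Pgd and Me1 also did without control replicate 1, as 20.0% of all genes did on the higher side.

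Among the glutathione genes, Gclc was called lower and Gclm was not called by limma without control replicate 1, and the difference between them was not tested. Gclc and Gclm encode the catalytic and modifier subunits of glutamate-cysteine ligase, the rate-limiting enzyme of glutathione synthesis. Gclc was at 10090, 11366 and 11743 normalised reads with FL-ApoE4 and at 11395, 13672 and 13444 in controls. The groups overlapped through control replicate 1, which was the lowest control. Its log2 fold change was -0.21 ± 0.09 (limma adjusted p = 0.364), and without control replicate 1 Gclc fell by 0.30 ± 0.07 (limma adjusted p = 0.0431). Gclm was at 16457, 16104 and 16957 normalised reads with FL-ApoE4 and at 20729, 14886 and 14047 in controls. Here control replicate 1 was the highest of all 6 libraries, and the other controls were the lowest. The log2 fold change of Gclm was 0.02 ± 0.14 with all libraries and 0.19 ± 0.05 without control replicate 1 (limma adjusted p = 0.975 and 0.0695). The ratio of Gclm to Gclc reads was 1.63, 1.42 and 1.44 with FL-ApoE4 and 1.82, 1.09 and 1.04 in controls, so the treated libraries lay between the controls. Gss, glutathione synthetase, had 1122 ± 121 normalised reads with FL-ApoE4 and 1163 ± 209 in controls. Gsr, which regenerates reduced glutathione, was at 6530, 6008 and 6280 with FL-ApoE4 and at 7485, 5416 and 5371 in controls, with a limma adjusted p of 0.901, and of 0.0539 without control replicate 1.

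Of the enzymes that use glutathione, Mgst1 alone separated the groups. Mgst1, a membrane-bound glutathione transferase, was at 2286, 2075 and 2049 normalised reads with FL-ApoE4 and at 1907, 1878 and 1782 in controls. Its log2 fold change of 0.20 ± 0.06 missed the threshold with all libraries (limma adjusted p = 0.258) and without control replicate 1 (0.108). The selenium-containing peroxidases Gpx1, of hydrogen peroxide, and Gpx4, of lipid hydroperoxides, had log2 fold changes of 0.05 (95% interval -0.08 to 0.18) and 0.01 (-0.14 to 0.17). Gstm1 and Gstp1, cytosolic transferases, had 0.00 (-0.11 to 0.12) and -0.01 (-0.20 to 0.18). For Gpx1, Gpx4 and Gstm1 these intervals leave out changes of 0.2 either way, and for Gstp1 the lower end is close to that limit, at -0.1963. Gstp1 averaged 485 ± 26.5 normalised reads with FL-ApoE4 and 489 ± 19.3 in controls. Its near-identical neighbour Gstp2 averaged 1.29 normalised reads over the 6 libraries, and reads shared by such copies are uncertain. Abcc1, an exporter of glutathione conjugates, was at 11320, 13430 and 13633 normalised reads with FL-ApoE4 and at 15305, 11505 and 11371 in controls, so the first replicate departed from the others in each group, in opposite directions. Its log2 difference was 0.02 ± 0.13 with all libraries, 0.16 ± 0.08 without control replicate 1, 0.10 ± 0.14 without FL-ApoE4 replicate 1 and 0.24 ± 0.03 without either (limma adjusted p = 0.975, 0.328, 0.805 and 0.000394).

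In the thioredoxin system, the differences of Txnrd1 and Srxn1 turned from negative to positive when control replicate 1 was left out. Txnrd1, thioredoxin reductase, was at 38339, 39310 and 40255 normalised reads with FL-ApoE4 and at 63037, 38777 and 37626 in controls. Srxn1, sulfiredoxin, which repairs over-oxidised peroxiredoxins, was at 15620, 16147 and 16887 with FL-ApoE4 and at 30042, 16343 and 14855 in controls. For both genes the treated libraries were alike and fell among control replicates 2 and 3 or just above them. The log2 fold change of Txnrd1 was -0.20 ± 0.18 with all libraries and 0.04 ± 0.05 without control replicate 1. That of Srxn1 was -0.26 ± 0.24 and 0.06 ± 0.06, and neither gene passed in either fit (limma adjusted p of 0.652 to 0.708). Prdx1, a thiol peroxidase whose window carries the composite core shown above, was at 65173, 59795 and 63117 with FL-ApoE4 and at 80409, 52665 and 54289 in controls. The treated libraries lay above control replicates 2 and 3 and below control replicate 1. Its log2 fold change was 0.03 ± 0.15 with all libraries (limma adjusted p = 0.959), and without control replicate 1 Prdx1 rose by 0.23 ± 0.05 (limma adjusted p = 0.0441). Txn1, thioredoxin itself, Prdx2 and Prdx6, a peroxiredoxin that uses glutathione, had log2 fold changes of 0.02 ± 0.08, 0.10 ± 0.06 and -0.05 ± 0.06. The spread between controls was 41.0% of the mean for Srxn1, 30.9% for Txnrd1 and 24.9% for Prdx1, and 8.75% for Txn1, 2.56% for Prdx2 and 4.03% for Prdx6. Among treated libraries it was 3.92%, 2.44%, 4.33%, 7.58%, 6.84% and 6.94% for the same 6 genes in the same order.

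**Figure D4:**
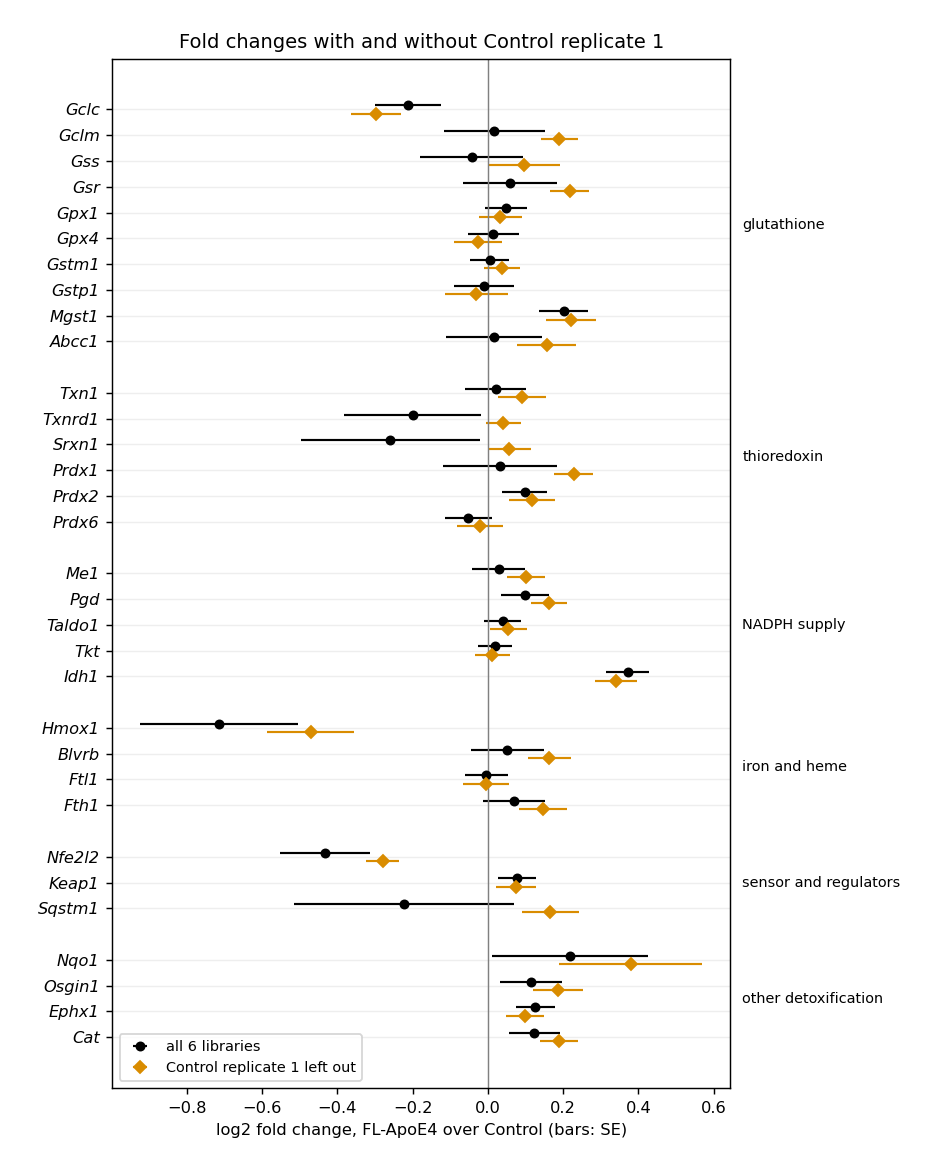
Log2 fold change of FL-ApoE4 over Control with its SE for the 32 tested genes by role, with all 6 libraries (black) and with control replicate 1 left out (orange). Txnrd1, Srxn1, Gss and Sqstm1 cross from negative to positive, Gpx4 crosses from positive to negative, and Idh1, Mgst1, Hmox1, Nfe2l2 and Gclc stay on their side.

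The other 4 detoxification enzymes had positive differences, none of which passed by limma with all libraries or without control replicate 1. Cat was called by DESeq2 without that library (DESeq2 adjusted p = 0.0287). Ephx1, the microsomal epoxide hydrolase, was at 3633, 3809 and 3714 normalised reads with FL-ApoE4 and at 3274, 3516 and 3434 in controls. The groups did not overlap, and the log2 fold change was 0.13 ± 0.05 (limma adjusted p = 0.359). Cat, the peroxisomal catalase, was at 11791, 12522 and 12442 with FL-ApoE4 and at 12312, 10977 and 10504 in controls. Control replicate 1 lay among the treated libraries, and the log2 fold change was 0.12 ± 0.07, or 0.19 ± 0.05 without that library (limma adjusted p = 0.485 and 0.073). Osgin1 was at 1038 ± 39.9 normalised reads with FL-ApoE4 and 961 ± 86.5 in controls (SD, n = 3 each). Nqo1 was at 83.7, 101 and 69.5 with FL-ApoE4 and at 90.1, 60.7 and 67.8 in controls. The groups overlapped, and the 95% interval of the log2 fold change of Nqo1, -0.26 to 0.70, includes 0 and a rise of more than 1.5-fold. Without control replicate 1 Osgin1 and Nqo1 were higher without overlap, as 20.0% of all genes were. Their log2 differences were then 0.19 ± 0.07 and 0.38 ± 0.19 (limma adjusted p = 0.17 and 0.329).

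Genes of the same pathways outside the list were read from the same fits, from a list of 113 redox genes drawn up by function. Of these, 95 passed the minimum level and 9 are listed at 0 in every library, among them G6pdx and Txnip, which cells commonly express. By limma with all libraries 0 of 95 were called, and edgeR called 0. At an unadjusted limma p under 0.05 there were 18 of 95, against 13.1% of all genes. DESeq2 called 7 (7.37%, against 2.63% of all genes). Of these 3 were higher, against 1.36% of all genes, and 4 lower, against 1.27%. Without control replicate 1 limma called 14 (14.7%, against 4.62% of all genes). Of these 9 were higher, against 2.93% of all genes, and 5 lower, against 1.69%. In the fit with all libraries, the 3 of lowest p on the lower side were Sesn2, a stress-induced sestrin, Chac1, which degrades glutathione, and Mthfd2, a mitochondrial folate enzyme that makes NADPH or NADH. Sesn2 was at 1361, 1353 and 1812 normalised reads with FL-ApoE4 and at 2428, 3313 and 3091 in controls, with a log2 difference of -0.97 ± 0.15 and a limma adjusted p of 0.105. Chac1 was at 42.4, 36.2 and 67.5 with FL-ApoE4 and at 124, 165 and 135 in controls (-1.56 ± 0.25, limma adjusted p = 0.107). Mthfd2 had -0.37 ± 0.08. On the higher side were Rac2, a subunit of the phagocyte NADPH oxidase, at 0.29 ± 0.06, Maf, a large Maf factor, at 0.80 ± 0.20, and Nadk, the cytosolic NAD kinase that makes NADP, at 0.42 ± 0.12 (limma adjusted p of 0.152 to 0.226). Each of these 6 was called without control replicate 1.

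The other 2 genes called lower without control replicate 1, named after their values were seen, were Slc7a11 and Maff. Slc7a11, the cystine importer that feeds glutathione synthesis, was at 5318, 6157 and 7312 normalised reads with FL-ApoE4 and at 31070, 9756 and 8545 in controls. Every treated library was below every control, and control replicate 1 was more than 3 times either other control. Its log2 fold change was -1.14 ± 0.45 with all libraries (limma adjusted p = 0.337) and -0.56 without control replicate 1 (limma adjusted p = 0.0351). Maff, a small MAF partner of NRF2, was at 1344, 1273 and 1249 with FL-ApoE4 and at 3620, 1938 and 1803 in controls, with log2 fold changes of -0.85 ± 0.24 (limma adjusted p = 0.218) and -0.54 (limma adjusted p = 0.00333). Sesn2, Chac1, Mthfd2 and Slc7a11 are also known as targets of ATF4, a factor of the response to amino acid shortage. These genes were named for their low p or their call, and a part of ATF4 in their values was not tested.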

How the data were processed

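The authors deposited 1 normalised signal per gene and library. Each value was a whole multiple of the lowest nonzero value of its library (tolerance 0.01, 100% of values), and division by it gave whole reads. The tools DESeq2 1.30.1, HTSeq, HISAT2 2.2.1 and FastQC 0.11.8 and build GRCm39 are named per the submitters' processing notes. No source used here gives their settings. The library kit keeps the strand, per the labels, but how strand was counted is unknown, which leaves antisense and overlapping genes uncertain. A second deposited table holds the authors' log2 fold change with its p-value for each gene.

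Differences were tested two-sided with limma 3.58.1 under R 4.3.3, using a mean-variance trend and group as the only term, on log2(value + 1). A mean of at least 10 was required, which kept 14079 genes, and p was adjusted by Benjamini-Hochberg over them, with 0.05 as the threshold. This scale understates changes of low genes. The recovered reads were tested with edgeR 4.0.16, which called 0 genes, and DESeq2 1.42.0, which called 370. The fits were checked on simulated data in which no library stood apart, so that check does not cover a departure like that of control replicate 1. The 33 genes, the gene lists and the tests were chosen with earlier results of these data known, and the promoter patterns after matches were seen. All 33 genes are described. Of the other redox genes, the 3 of lowest p in each direction are named, and further ones are said to be named afterwards. Transcript lengths are of the longest principal transcript in GENCODE M21 (GRCm38). Promoters were matched by symbol to RefSeq (GRCm38.p6).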

Additional observations from a re-analysis of the deposited data

How the results depend on the processing

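Pseudocounts of 0.5 and 5, a minimum mean of 50, equal totals, scaling by TMM or by quantiles, robust or untrended variances, the replicate block and edgeR left the counts of called genes at 0 in the whole table, among the 32 tested members and among the 95 other redox genes. With no filter beyond a mean above 0, 1 gene was called in the whole table. DESeq2 called 370 genes, 2 members and 7 other redox genes. Leaving out 1 library gave 0 to 651 genes, 0 to 4 members and 0 to 14 other redox genes, the upper ends without control replicate 1. Added after the data were seen, fits without control replicate 1 called 691 genes, 4 members and 14 others by edgeR and 959, 7 and 17 by DESeq2. Leaving out the first replicate of both groups gave 1767, 11 and 24 by limma, and the cause was not tested. The members' median log2 fold change ranged from -0.01 to 0.10 over all settings, and was below 0 without control replicate 2 or 3.

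Whether replicate numbers pair the samples could not be settled, as the deviations of 3 libraries within a group are not independent. Same-numbered deviations correlated at 0.132, 0.0679 and -0.026, and with the replicate block 0 genes were called and 2177 had an unadjusted p under 0.05, against 1850 without it.

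Limma with all libraries called 0 genes, so the members whose sign turned were not called there either. Of these members, limma called Prdx1 without control replicate 1, and DESeq2 also called Gclm and Gsr without it. Without the first replicate of both groups, limma called Prdx1, Gclm, Gsr and Abcc1. Over fits leaving out 1 library, log2 fold changes ran from -0.0576 to 0.1567 for Abcc1, -0.0128 to 0.1629 for Blvrb, -0.0485 to 0.0318 for Ftl1, -0.0902 to 0.1905 for Gclm, -0.0354 to 0.0577 for Gpx4 and -0.0223 to 0.2171 for Gsr. They ran from -0.1477 to 0.0972 for Gss, -0.0167 to 0.0373 for Gstm1, -0.0479 to 0.0308 for Gstp1, -0.008 to 0.1013 for Me1 and -0.0766 to 0.2287 for Prdx1. They ran from -0.4738 to 0.166 for Sqstm1, -0.4509 to 0.0571 for Srxn1, -0.0021 to 0.0416 for Tkt, -0.0401 to 0.0913 for Txn1 and -0.3314 to 0.0408 for Txnrd1. Without control replicate 1, edgeR and DESeq2 gave 0.1027 and 0.0973 for Gss, -0.0223 and -0.0283 for Gpx4, 0.0443 and 0.0385 for Txnrd1, 0.0594 and 0.0537 for Srxn1 and 0.1663 and 0.1604 for Sqstm1, and edgeR 0.0007 for Ftl1. Without the first replicate of both groups the values were 0.0161 for Gss, -0.0096 for Gpx1, -0.0761 for Gpx4, 0.0586 for Txnrd1, 0.0838 for Srxn1, -0.0091 for Tkt and 0.1561 for Sqstm1. Gclm had -0.0012 by edgeR and -0.0084 by DESeq2, Gstp1 0.0046 with equal totals, and Ftl1 0.011 with equal totals and 0.0005 by edgeR. Nfe2l2, Hmox1, Gclc, Idh1, Mgst1, Keap1, Ephx1, Cat, Osgin1, Nqo1, Pgd, Taldo1, Prdx2 and Prdx6 kept their direction in every setting run, as did Fth1 except for a value of 0 after scaling by quantiles.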
